A study of Mus musculus with 6 samples.

Results

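Collagen transcripts were examined in the ventral lumbar spinal cord of SOD1G93A mice, a model of amyotrophic lateral sclerosis based on a transgene for a mutant form of superoxide dismutase 1. The 41 genes described here, of 28162 in the deposited table, are those whose symbol is Col, a number, a and a number and whose mean over the 6 libraries was at least 5 normalized counts. All animals carried the transgene, and all were given adeno-associated virus (AAV) in the fluid around the cord on postnatal day 74. The virus encoded green fluorescent protein (AAV-GFP, 3 libraries) or neuron-derived neurotrophic factor, a secreted glycoprotein (AAV-NDNF, 3 libraries). Polyadenylated RNA of tissue taken on day 104 was sequenced. The libraries are labelled as biological replicates, and whether each came from 1 animal, the sex of the animals and the promoter in the virus are not given in the sources used here. Neither animals without the transgene nor animals without virus were compared here, so each difference is between viral cargoes in diseased tissue.

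Collagens are triple helices of chains made in the endoplasmic reticulum, where proline and lysine residues are hydroxylated and the chaperone HSP47 holds the folded helix. Fibrillar collagens are trimmed outside the cell and pack into cross-linked fibrils, whereas type IV forms the sheet-like network of basement membranes, and smaller families coat fibrils, anchor membranes or span the plasma membrane. In the central nervous system the basement membranes lie around vessels and under the pia, fibril-forming types I and III are made mainly by fibroblasts of the meninges and larger vessels, and the parenchyma itself holds little fibrillar collagen.

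The members fell into 11 fibrillar genes, 8 basement membrane genes (types IV, XV and XVIII), 9 fibril-associated collagens with interrupted triple helices (FACIT), 5 beaded filament genes (type VI), 5 genes of other networks and anchoring structures and 3 transmembrane collagens. The table held 44 such symbols. Below the minimum were Col6a5 (mean 4.09), Col10a1 (2.67) and Col17a1 (1.39), and the members nearest above it were Col28a1 (5.95), Col6a6 (9.24) and Col14a1 (9.72). A filter that asks for 10 normalized counts or more in 3 libraries or more passed 40 of the 41, with Col28a1 untested.

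Reads assigned to genes came to between 15335789 and 20060987 per library. Ndnf stood at 171, 128 and 158 normalized counts in AAV-GFP libraries 1 to 3 and at 5286, 7077 and 674 in AAV-NDNF libraries 1 to 3, so that AAV-NDNF replicate 3 had the least of the delivered transcript in its group. Transcripts of neurons (Snap25, Chat), astrocytes (Gfap, Aqp4) and oligodendrocytes (Mbp) were present in every library. Across genes, AAV-NDNF replicate 3 was the lowest library for 26.3% of the 17480 genes tested and the highest for 26.4%, more often than any other library. AAV-GFP replicate 2 came next, lowest for 20.2% and highest for 20.8%. In the text below 3 values in a row are replicates 1 to 3, log2 fold changes are those of AAV-NDNF over AAV-GFP after adding 1 to each normalized count, SE is the standard error, and ± is the SD over n = 3 libraries of a group unless another n is given.

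The 6 type IV genes lie in 3 pairs whose members are read in opposite directions from a shared start region (mm10 coordinates from GENCODE M21). Col4a1 (minus strand) and Col4a2 (plus strand) start on chromosome 8 with an overlap of 22 bases in their first exons. Col4a4 (minus) and Col4a3 (plus) are 71 bases apart on chromosome 1. Col4a6 (minus) and Col4a5 (plus) are 1308 bases apart on the X chromosome. The sequences before the starts of 2 of these pairs are printed because the pairs' levels are compared below, and those of Col3a1, Col11a2, Col5a3 and Col8a2 because these genes are, in turn, a low fibroblast-type fibrillar chain, a leading fibrillar chain, and the 2 members whose libraries did not overlap between groups. They are from RefSeq (GRCm38.p6), 5′ to 3′ on the strand of the named gene and without exon bases. Capitals mark the TATA box (spelled TATAAA), the CCAAT box (spelled by its name) and the GC box (spelled GGGCGG), each searched on both strands, so a box on the other strand reads as its reverse complement, and boxes that overlap run together.
Col4a4 to Col4a3, chr1:82586850-82586920, minus strand: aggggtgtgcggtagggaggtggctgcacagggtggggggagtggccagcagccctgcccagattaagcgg
Col4a5, chrX:141475169-141475384, plus strand: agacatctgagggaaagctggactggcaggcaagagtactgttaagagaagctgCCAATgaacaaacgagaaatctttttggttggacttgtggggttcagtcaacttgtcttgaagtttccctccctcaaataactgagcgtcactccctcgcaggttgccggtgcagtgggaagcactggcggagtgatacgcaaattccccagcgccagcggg
Col4a6, chrX:141474077-141474326, minus strand: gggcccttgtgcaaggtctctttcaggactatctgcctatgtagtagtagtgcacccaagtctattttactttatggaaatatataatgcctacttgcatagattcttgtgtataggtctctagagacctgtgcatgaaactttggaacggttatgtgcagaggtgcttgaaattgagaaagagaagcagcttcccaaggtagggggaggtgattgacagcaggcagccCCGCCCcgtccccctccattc
Col3a1, chr1:45311288-45311537, plus strand: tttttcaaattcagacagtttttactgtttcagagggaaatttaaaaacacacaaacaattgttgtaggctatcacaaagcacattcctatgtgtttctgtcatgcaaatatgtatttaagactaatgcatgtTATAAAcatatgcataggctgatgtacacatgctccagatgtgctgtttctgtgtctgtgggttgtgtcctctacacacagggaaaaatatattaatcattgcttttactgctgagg
Col11a2, chr17:34038888-34039137, plus strand: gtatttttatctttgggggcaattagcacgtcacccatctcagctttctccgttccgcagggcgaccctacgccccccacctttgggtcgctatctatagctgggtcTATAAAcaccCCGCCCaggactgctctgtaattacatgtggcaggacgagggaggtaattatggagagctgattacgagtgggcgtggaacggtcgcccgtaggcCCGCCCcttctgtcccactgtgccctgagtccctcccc
Col5a3, chr9:20815068-20815317, minus strand: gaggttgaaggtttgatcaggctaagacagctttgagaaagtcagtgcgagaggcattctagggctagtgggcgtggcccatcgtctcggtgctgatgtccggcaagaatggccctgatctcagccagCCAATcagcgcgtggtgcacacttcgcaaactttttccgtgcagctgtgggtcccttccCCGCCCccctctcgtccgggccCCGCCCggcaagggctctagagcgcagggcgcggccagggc
Col8a2, chr4:126286544-126286792, plus strand: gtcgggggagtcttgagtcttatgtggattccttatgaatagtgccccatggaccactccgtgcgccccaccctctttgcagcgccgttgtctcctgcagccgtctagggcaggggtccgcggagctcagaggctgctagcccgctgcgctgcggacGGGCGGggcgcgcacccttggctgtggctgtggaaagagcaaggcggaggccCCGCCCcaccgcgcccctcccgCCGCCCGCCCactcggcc
The 71 bases between Col4a4 and Col4a3 held none of the 3 motifs. Col3a1 and Col11a2 each held a TATA box, Col5a3 held 1 CCAAT box and 2 GC boxes, and Col8a2 held 4 GC boxes. RefSeq windows of 250 bases before the start were matched for 32 of the 41 members (35 windows). TATAAA was in 8.57% of these windows against 12.4% of 32851 promoter windows in all, CCAAT in 34.3% against 33.8%, and GGGCGG in 60% against 32.7%. A match is a description of letters, not of a bound site.

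All collagens together took between 0.0444% and 0.0658% of normalized counts. Levels of genes were compared per kilobase of exon, with every annotated exon base of a gene counted, whether or not these transcripts use it. Genes with unused exons read low, so the order is approximate. The leading transcript was Col16a1, a FACIT chain, at 181 ± 48.4 normalized counts per kilobase (n = 6 libraries). Col11a2, a type XI chain that joins thin cartilage-type fibrils, followed at 151 ± 44.2, then Col4a2 at 117 ± 17.6 and Col9a3 at 116 ± 15.5. Neighbours in this order overlapped over the libraries, while the range of Col16a1 (141.7 to 271.2) lay above those of Col4a2 and Col9a3. Next came Col23a1 (82.6 ± 23.6), Col4a1 (68.7 ± 10.5), Col5a3 (66.7 ± 21.1) and Col11a1 (52.0 ± 10.8), whose ranges also overlapped one another. The main fibrillar chains of connective tissue stood lower by this measure, with Col1a2 at 38.5 ± 2.59, Col1a1 at 26.5 ± 4.73 and Col3a1 at 8.48 ± 2.53. Their exon bases came to 12426, 6563 and 9816, and how many of these the transcripts here use was not tested. Col4a3, Col4a4, Col14a1, Col28a1 and Col6a6 were the lowest, each below 2 normalized counts per kilobase on average.

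**Figure D1:**
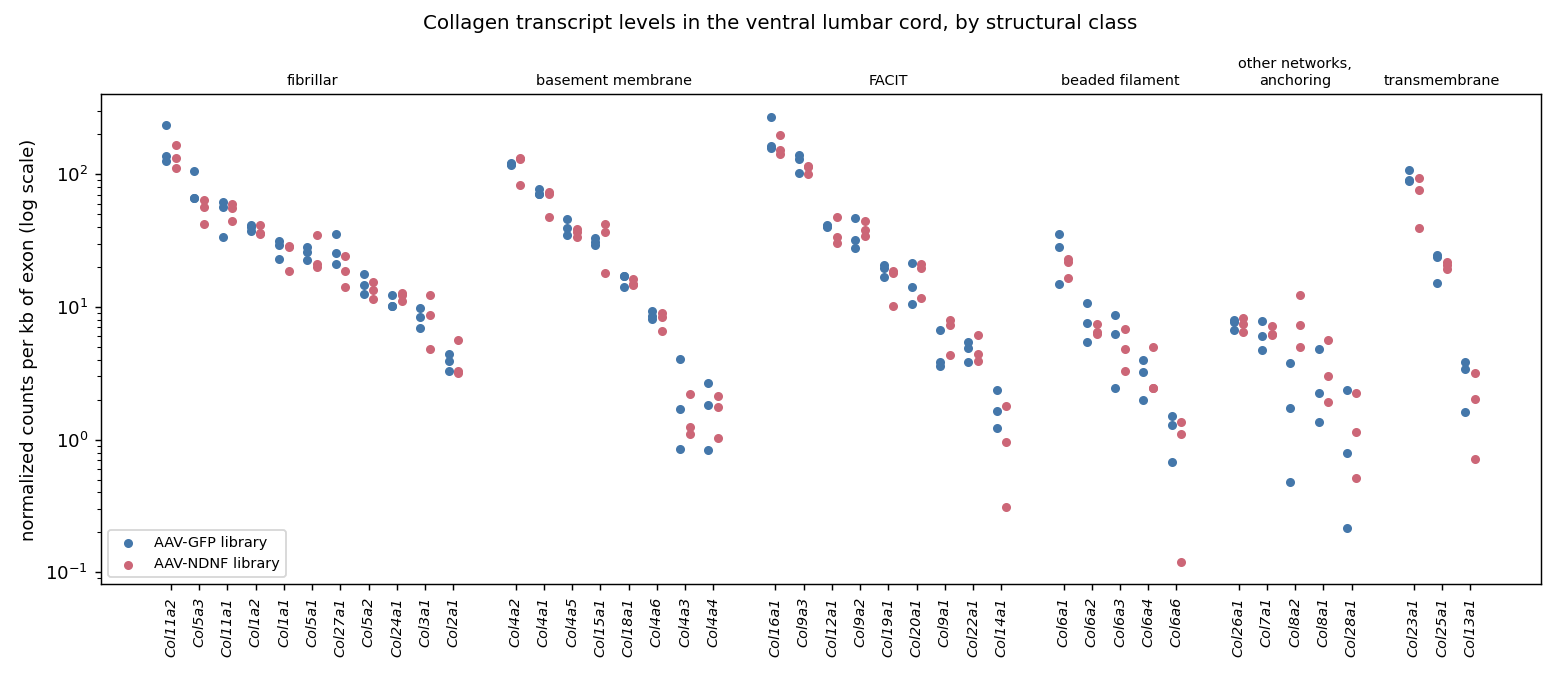
Each point is 1 library's normalized counts per kilobase of exon (log scale) for 1 of the 41 collagen genes, grouped by structural class, with AAV-GFP libraries in blue and AAV-NDNF libraries in red. Col16a1, Col11a2, Col4a2 and Col9a3 lie at the top, and the colours overlap in nearly all columns, with Col5a3 and Col8a2 as the 2 tested exceptions.

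No collagen gene passed the test between the groups. In limma with Benjamini-Hochberg adjustment over all 17480 genes, 0 of the 40 tested collagens had an adjusted p under 0.05 (0% of all genes did). The smallest was 0.711 for Col8a2. Ndnf, the delivered gene, was not called by limma either, with a log2 fold change of 4.27 and an adjusted p of 0.53. In the authors' deposited DESeq2 values its adjusted p was 8.92e-05. The limma test thus missed a large difference, and 0 calls do not show that the collagens were unchanged. The edgeR and DESeq2 tests on recovered reads also called 0 collagens, and DESeq2 called 55 genes in all. In the authors' deposited table, 54 of 20315 genes with an adjusted p (0.266%) were under 0.05, and none of these was a collagen. At an unadjusted p under 0.05, limma gave 3 of 40 collagens against 4.68% of all genes: Col8a2 was higher (as were 1.15% of all genes), and Col5a3 and Col27a1 were lower (3.53% were lower). This count went from 1 without AAV-NDNF replicate 3 to 5 without AAV-NDNF replicate 1.

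Most point estimates lay on the lower side. A log2 fold change below 0 was found for 28 of the 40 collagens (49.9% of all genes tested), with a median of −0.09 against 0.00 over all genes. The direction leaned most on 2 libraries. AAV-GFP replicate 2 was the highest library for 15 of the 40 (20.8% of all genes) and AAV-NDNF replicate 3 the lowest for 17 (26.3%). Leaving out 1 library gave 21 below 0 without AAV-NDNF replicate 3, 25 without AAV-GFP replicate 2 and 26 to 30 without any other. Without both libraries 19 of 40 lay below 0. That choice was made after the values were seen and was bound to raise the estimates of genes with these 2 extremes. The libraries of the groups did not overlap for 2 collagens, Col5a3 and Col8a2 (9.75% of all genes). As this is bulk tissue, fewer cells of a type and less RNA per cell cannot be told apart in any value given here.

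**Figure D2:**
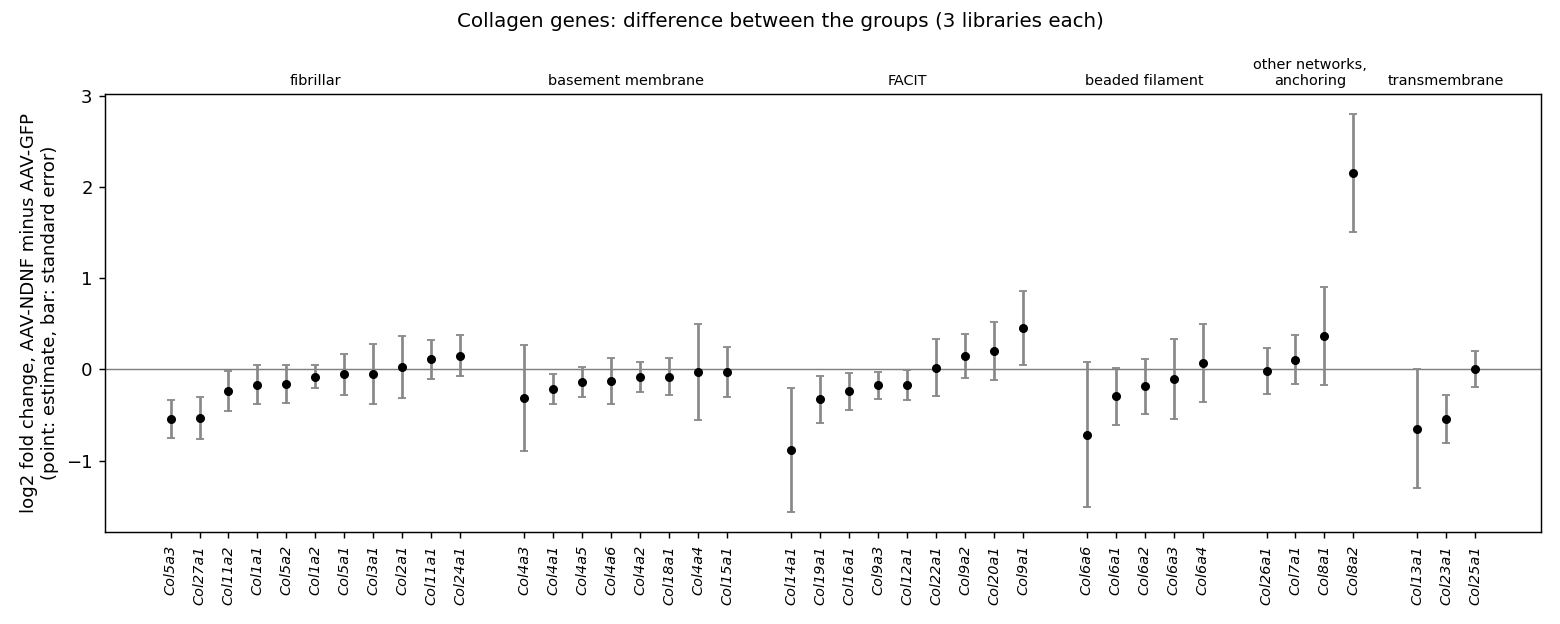
Each point is the limma log2 fold change (AAV-NDNF minus AAV-GFP, 3 libraries each) of 1 of the 40 tested collagens and each bar its standard error, grouped by structural class. The 8 basement membrane points lie between −0.31 and −0.03, and Col8a2 stands apart at 2.16.

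Among the fibrillar genes, 8 of 11 had an estimate below 0 in limma (1 of them, Col3a1, was above 0 in edgeR and DESeq2), with a median of −0.08 and a range of −0.54 to 0.15. The median was −0.23 without AAV-NDNF replicate 1, −0.14 without AAV-GFP replicate 1, −0.13 without AAV-GFP replicate 3, −0.04 without AAV-NDNF replicate 2 and −0.03 without AAV-GFP replicate 2. Col1a1 and Col1a2 encode the chains of type I, the main collagen of bone, tendon and dura. Col1a1 stood at 152, 205 and 191 normalized counts after AAV-GFP and at 188, 122 and 184 after AAV-NDNF (a log2 value of −0.16, SE 0.22). Col1a2 stood at 493, 465 and 515 and at 447, 440.4 and 510.4 (−0.08, SE 0.13). The groups overlapped for both, and Col1a2 was among the steadiest members, its highest library being 1.17 times its lowest. Col3a1, the chain of type III found with type I in vessel walls, stood at 82.1, 95.8 and 68.4 and at 85.8, 121 and 47.1, with the highest and the lowest values both in the AAV-NDNF group. Its estimate was −0.05 (SE 0.33). Col2a1, the main chain of cartilage fibrils, was low, between 29.6 and 52.1.

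The larger share of fibrillar counts came from types XI and V, which copolymerize with the major fibrils and set where and how thick they grow. Col11a2 stood at 941, 1606 and 867 after AAV-GFP and at 1148, 907 and 770.1 after AAV-NDNF, and its log2 fold change was −0.24 (SE 0.22). Col11a1 stood at 726, 430.0 and 781 and at 766, 711 and 564 (0.11, SE 0.21). AAV-GFP replicate 2 was at once the highest library for Col11a2 and the lowest for Col11a1. The ratio of Col11a2 to Col11a1 per kilobase was 6.92 there and between 2.06 and 2.78 in the other 5 libraries.

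Of the type V chains, Col5a3 had the lowest estimate among the fibrillar genes. It stood at 453, 718 and 451 after AAV-GFP and at 432, 385 and 286 after AAV-NDNF. Every AAV-NDNF library was below every AAV-GFP library, as for 5.50% of all genes, and AAV-GFP replicate 2 and AAV-NDNF replicate 3 were the extremes. The log2 fold change of Col5a3 was −0.54 (SE 0.21, unadjusted p = 0.0254, limma adjusted p = 0.993). Leaving out AAV-GFP replicate 2 gave an unadjusted p of 0.123, leaving out AAV-NDNF replicate 3 gave 0.0898, and the estimate was −0.15 without both. Removing the 2 extremes was bound to raise the estimate. Col5a1, which every common form of type V contains, stood at 190.2, 238 and 219 and at 294, 169 and 179 (−0.05), and its partner Col5a2 at 141, 169 and 121 and at 129, 109 and 148 (−0.16). Both overlapped between the groups.

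Col27a1, a fibrillar chain of cartilage and developing tissues, stood at 275, 463 and 333 after AAV-GFP and at 315, 242 and 184 after AAV-NDNF. The groups overlapped, since AAV-NDNF replicate 1 was above AAV-GFP replicate 1, and the same 2 libraries as for Col5a3 were the extremes. The log2 fold change was −0.53 (SE 0.23, unadjusted p = 0.043, limma adjusted p = 0.997). It was −0.13 without those 2 libraries, an omission of extremes that was bound to raise it. Col24a1, the related type XXIV chain, lay between 76.8 and 97.6 (0.15).

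All 8 basement membrane genes had an estimate below 0 in limma (Col15a1 was above 0 in edgeR and DESeq2), with a median of −0.10, and 0 of them had an unadjusted p under 0.05. The median ranged from −0.20 without AAV-NDNF replicate 2 to −0.03 without AAV-NDNF replicate 3 when 1 library was left out, and was 0.09 without AAV-GFP replicate 2 and AAV-NDNF replicate 3 together. Type IV of vessel walls is a trimer of chains encoded by Col4a1 and Col4a2, and variants of either gene cause small-vessel disease of the brain. Col4a1 stood at 532, 576 and 531 after AAV-GFP and at 553, 527 and 357 after AAV-NDNF (−0.21, SE 0.17). Col4a2 stood at 795, 775 and 798 and at 863, 872 and 551 (−0.08, SE 0.17). For both genes 5 libraries lay close together and AAV-NDNF replicate 3 lay well below them. The ratio of Col4a2 to Col4a1 per kilobase moved little, from 1.68, 1.52 and 1.69 after AAV-GFP to 1.76, 1.86 and 1.74 after AAV-NDNF. The groups did not overlap in this ratio, although they did in each chain. The share of 9.75% is of single genes, and no share over ratios of 2 genes was computed. Among the other chain ratios read, that of Col8a1 to Col8a2 did not overlap either. Ratios of Col1a2 to Col1a1, Col4a5 to Col4a6, Col4a3 to Col4a4, Col6a2 to Col6a1, Col11a2 to Col11a1 and Col5a1 to Col5a2 overlapped.

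Col4a5 and Col4a6, which share the X-linked start region printed above, form a trimer of smooth muscle and other specialised membranes. Col4a5 stood at 232, 266 and 308 and at 259.9, 244 and 225 (−0.14), and Col4a6 at 65.2, 74.3 and 68.4 and at 72.3, 66.4 and 52.6 (−0.13). The ratio of Col4a5 to Col4a6 per kilobase stayed between 4.23 and 5.34. The Col4a3 and Col4a4 chains, which with Col4a5 build the filter membrane of the kidney, were near the limit of what this depth can compare. Col4a3 stood at 16.96, 40.1 and 8.54 and at 21.9, 12.4 and 10.95 (−0.31), and Col4a4 at 8.93, 28.3 and 19.2 and at 10.9, 22.5 and 18.6 (−0.03). Their ratio per kilobase varied from 0.473 to 2.13 within and between groups, and Col4a3 shares 5.65% of its exon bases with an antisense transcript.

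Types XV and XVIII link basement membranes to the matrix around them, and type XVIII is the source of the fragment endostatin. Col15a1 stood at 187, 195 and 208 after AAV-GFP and at 233, 267 and 115 after AAV-NDNF (−0.03, SE 0.27). Its highest and lowest libraries were AAV-NDNF replicates 2 and 3, and without replicate 3 the estimate was 0.34. Col18a1 was steady at 99.1, 120.2 and 121 and at 114, 104 and 103 (−0.08).

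**Figure D3:**
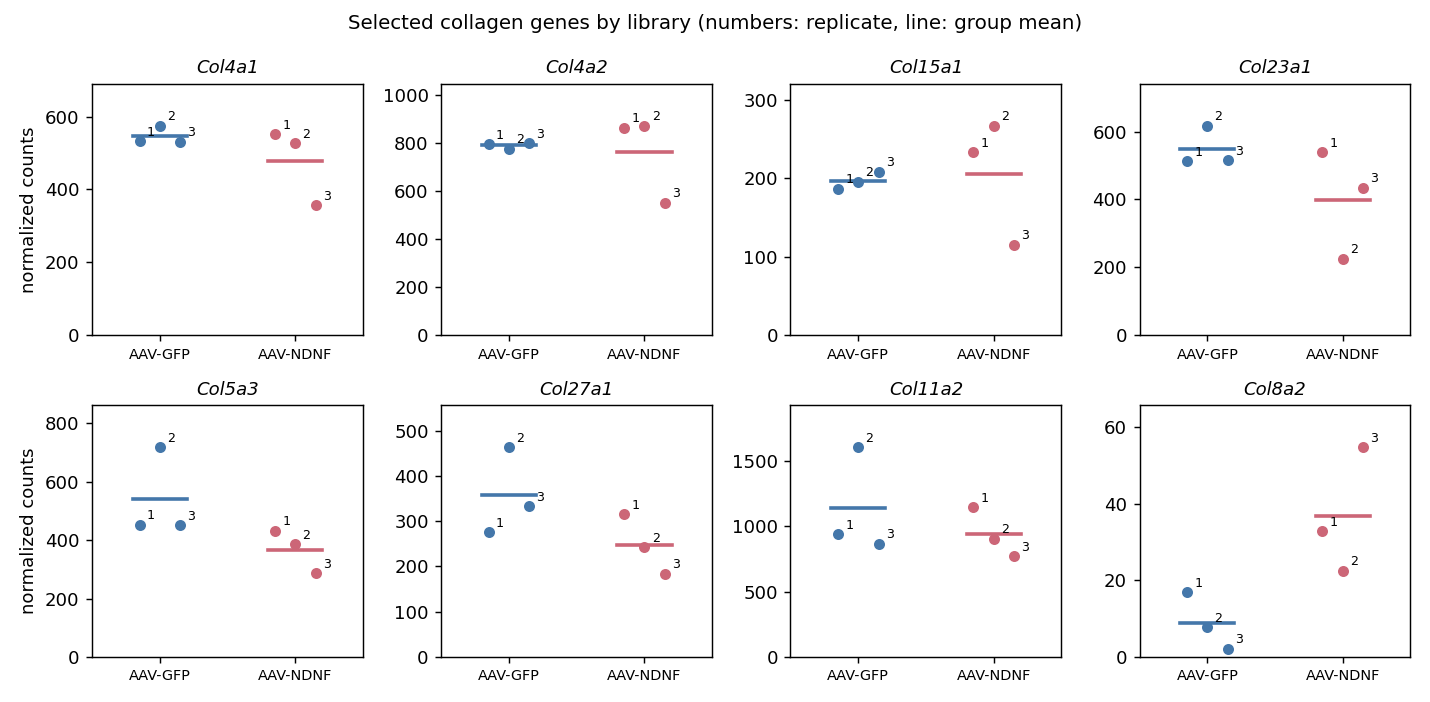
Each panel shows 1 collagen gene, with normalized counts of each library as points (the number is the replicate) and group means as lines, on axes that start at 0. AAV-NDNF replicate 3 is the low point of Col4a1, Col4a2 and Col15a1, AAV-GFP replicate 2 is the high point of Col5a3, Col27a1 and Col11a2, and every AAV-NDNF library is above every AAV-GFP library for Col8a2.

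The balance of fibrillar against basement membrane collagens overlapped between the groups. Summed fibrillar counts were 3559, 4504 and 3681 after AAV-GFP and 3955, 3329 and 2986 after AAV-NDNF, and summed basement membrane counts were 1935, 2075 and 2061 and 2128, 2115 and 1433. Their ratio was 1.84, 2.17 and 1.79 (1.93 ± 0.209) after AAV-GFP and 1.86, 1.57 and 2.08 (1.84 ± 0.256) after AAV-NDNF, a log2 difference of −0.08. This difference was −0.17 without AAV-NDNF replicate 3, and it turned to 0.01 without AAV-GFP replicate 2, to 0.03 without AAV-NDNF replicate 2 and to 0.04 with types I and III alone as the fibrillar class. AAV-NDNF replicate 3 had the lowest sum of both classes. Its ratio of 2.08 was the highest of its group and below only the 2.17 of AAV-GFP replicate 2. Per kilobase of exon the ratio was 1.55 ± 0.249 and 1.44 ± 0.205. With type IV chains alone as basement membrane it was 2.28 ± 0.243 and 2.20 ± 0.276. The ratio of types I and III alone to the basement membrane sum was 0.375, 0.369 and 0.376 after AAV-GFP and 0.339, 0.323 and 0.518 after AAV-NDNF. AAV-NDNF replicate 3 was thus the highest by that last measure and replicates 1 and 2 of its group the lowest.

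Markers of cell types that can hold collagen transcripts were read in the same libraries, and limma, edgeR and DESeq2 called 0 of them. At an unadjusted p under 0.05 in limma (4.68% of all genes) were 1 of 5 tested fibroblast markers (Dcn), 2 of 8 endothelial (Ly6c1 and Cldn5) and 1 of 5 of cartilage and bone (Matn1). None of the 9 mural cell, 6 Schwann cell and root or 1 skeletal muscle markers tested was. The 8 endothelial markers summed to 5188, 5897 and 5248 after AAV-GFP and to 5858, 5953 and 4647 after AAV-NDNF, with AAV-NDNF replicate 3 lowest here as for the basement membrane genes. Of these markers 5 were below 0 (median −0.10, or 0.12 without AAV-NDNF replicate 3 and −0.16 without AAV-NDNF replicate 1). Their estimates differed in sign. Cldn5, a tight junction protein, was lower without overlap (−0.46, unadjusted p = 0.0176, limma adjusted p = 0.915). Ly6c1, a surface protein, was higher without overlap (0.36, unadjusted p = 0.0122, limma adjusted p = 0.842), and Tek (0.36) and Slco1a4 (0.17) overlapped. Over all genes tested, 5.50% were lower and 4.26% higher without overlap. The 9 mural cell markers (pericytes and smooth muscle) summed to 6379.5, 7241 and 6349 and to 7141, 7768 and 6382. Their median was −0.03 (or 0.20 without AAV-NDNF replicate 3 and −0.15 without AAV-NDNF replicate 1). The estimates were 0.33 for Myh11 and 0.46 for Acta2, both contractile proteins of smooth muscle, 0.18 for Rgs5 and −0.42 for Kcnj8. Of the 9, Rgs5 alone did not overlap between the groups and was higher (4.26% of all genes).

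Of 10 fibroblast markers 9 were in the table and summed to 444, 415 and 360.0 after AAV-GFP and to 378, 487 and 495 after AAV-NDNF. Decorin (Dcn) made up more than any other gene of this sum, and without it the other 8 summed to 214, 211 and 186 and to 161, 195 and 169. Of the 5 tested, 4 were below 0 (median −0.25), namely Slc6a13 (−0.79), Foxc1 (−0.34), Lum (−0.25) and Aldh1a2 (−0.14), and Dcn was above it (0.44). Foxc1 was lower without overlap, as were 5.50% of all genes. Too low to be tested were Twist1 (group means 2.88 after AAV-GFP and 9.99 after AAV-NDNF), Crabp2 (2.40 and 5.01), Igf2 (0.71 and 1.69) and Slc47a1 (0.65 and 0.37), each with overlap. The median was −0.14 without the filter on low values and 0.05 with a filter of 50, which left 2 markers. It was −0.42 without AAV-NDNF replicate 3 and −0.17 without AAV-NDNF replicate 1. Levels within the list differed, with Slc47a1 and Igf2 at most 1.10 and 3.38 normalized counts. Foxc1 ranged from 64.8 to 113, Aldh1a2 from 18.6 to 42.1, Slc6a13 from 8.76 to 38.4 and Lum from 19.1 to 36.2. Of 6 tested markers of Schwann cells and nerve roots, 4 were above 0. Their median was 0.11, or −0.10 without AAV-NDNF replicate 3 and 0.19 without AAV-GFP replicate 2. The estimates were −0.28 for Drp2, −0.37 for Egr2, 0.15 for Pmp22 and 0.36 for Ncmap. Only Ncmap was higher without overlap (4.26% of all genes).

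The 7 cartilage and bone markers summed to 1293, 1683 and 1309.5 after AAV-GFP and to 1509.7, 1215 and 1007 after AAV-NDNF, highest in AAV-GFP replicate 2 and lowest in AAV-NDNF replicate 3 as the fibrillar sum was. Of the 5 tested, 4 were below 0 (median −0.22). Most of that sum came from Sox9 (−0.24) and Acan (−0.22), which astrocytes and other cells of the cord also express. Matn1, a cartilage matrix protein, was rare at 22.3, 20.5 and 19.2 and at 6.73, 2.25 and 2.19. It was lower without overlap, as were 5.50% of all genes (−2.33, unadjusted p = 0.00278, limma adjusted p = 0.53). The bone markers differed in level, with Bglap and Ibsp at most 1.79 normalized counts, Sp7 at 30.4, 60.6 and 11.7 and at 37.8, 58.6 and 12.05, and Alpl with a log2 fold change of −0.08. The 4 skeletal muscle markers in the table summed to 20.5, 21.5 and 23.5 and to 27.8, 24.8 and 43.8, higher after AAV-NDNF without overlap, and Ttn, the 1 tested, had 0.18. The part of these cells in the collagen values was not tested.

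**Figure D4:**
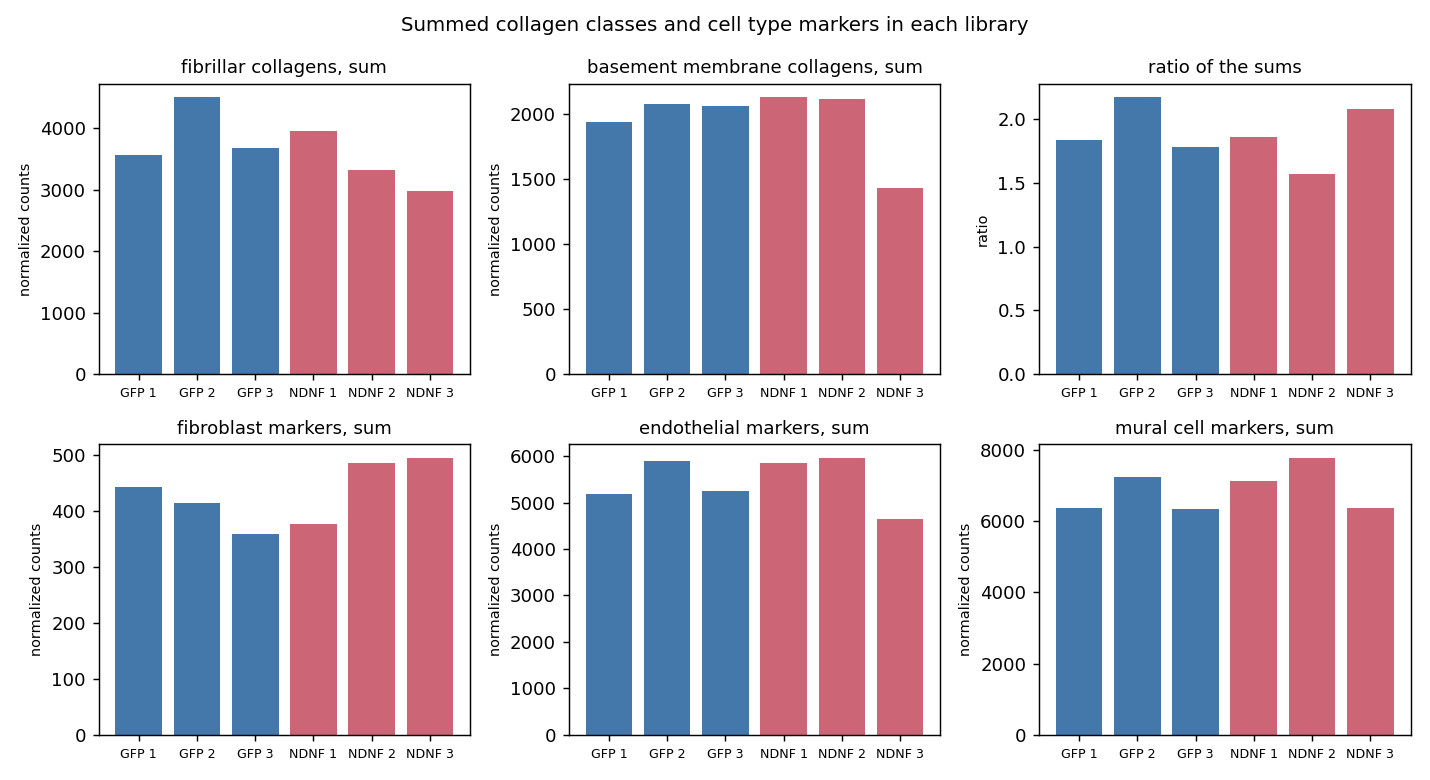
Bars are the summed normalized counts of each library for the fibrillar and basement membrane collagens and for 3 marker lists, and the ratio of the 2 collagen sums, on axes that start at 0. AAV-NDNF replicate 3 has the shortest bar for fibrillar, basement membrane and endothelial sums (2986, 1433 and 4647), while the ratio overlaps between the groups.

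FACIT collagens sit on the surface of fibrils and link them to other matrix. Their median was −0.17, with 5 of 9 below 0. It was −0.04 without AAV-NDNF replicate 3, −0.11 without AAV-NDNF replicate 2 and −0.09 without AAV-GFP replicate 2. Col16a1, the leading collagen of this tissue, stood at 1059, 1830.4 and 1108 after AAV-GFP and at 1339, 956 and 1024 after AAV-NDNF (−0.24, SE 0.20). AAV-GFP replicate 2 alone was far above the rest, and the other 5 libraries overlapped. Col12a1, which coats type I fibrils, stood at 612, 624 and 636 and at 724, 510.2 and 462 (−0.17), the AAV-GFP values lying within the AAV-NDNF range. Col14a1, of the same kind, had 2.19 to 16.6 normalized counts, which rest on 2 to 17 reads. Its estimate was the lowest of the 40 tested collagens (−0.88, SE 0.68), with overlap between the groups.

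Type IX, which coats cartilage fibrils, is built from Col9a1, Col9a2 and Col9a3. Col9a3 stood at 503, 535 and 393 and at 434, 440.4 and 383 (−0.18), and 6.07% of its exon bases overlap the opposite-strand gene Tcfl5. Col9a2 stood at 146, 98.7 and 86.5 and at 106, 117 and 138 (0.15). Col9a1 was the least of the 3 at 18.2 to 40.5 (0.46). The groups overlapped for each chain. Col19a1, whose 3′ end lies 9205 bases from that of Col9a1, stood at 115, 144 and 135 and at 129, 124 and 70.1 (−0.33), with AAV-NDNF replicate 3 lowest. Col20a1 ranged from 53.7 to 110.0 (0.20) and Col22a1, known from the junction of muscle and tendon, from 35.2 to 56.4 (0.02).

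Type VI forms beaded filaments next to basement membranes from the chains of Col6a1 and Col6a2 with that of Col6a3 or a relative. Of its 5 members 4 were below 0 (median −0.19, or 0.13 without AAV-NDNF replicate 3, 0.04 without AAV-GFP replicate 3 and −0.42 without AAV-GFP replicate 1). Col6a1 stood at 156, 65.5 and 124 after AAV-GFP and at 100.1, 72.1 and 95.3 after AAV-NDNF (−0.29, SE 0.31), with the highest and the lowest library both in the AAV-GFP group. Col6a2 stood at 45.5, 63.5 and 88.7 and at 62.2, 51.8 and 53.7 (−0.19), and Col6a3 at 29.5, 104 and 74.8 and at 58.0, 81.1 and 39.4 (−0.10). In AAV-GFP replicate 1 Col6a1 was at its highest while Col6a2 and Col6a3 were at their lowest. The relatives Col6a4 and Col6a6 ranged from 16.96 to 42.8 (0.07) and from 1.10 to 13.9 (−0.71, SE 0.80).

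Type VIII, a short-chain network of vessel walls and of the cornea's inner membrane, held the member with the highest estimate. Col8a2 stood at 16.96, 7.82 and 2.14 after AAV-GFP and at 32.8, 22.5 and 54.8 after AAV-NDNF, which rest on 19, 8 and 2 reads and on 39, 20 and 50 reads. Every AAV-NDNF library was above every AAV-GFP library, as for 4.26% of all genes, and the group means stood in a ratio of 4.09. The log2 fold change was 2.16 (SE 0.65, unadjusted p = 0.00667, limma adjusted p = 0.711), and it ranged from 1.49 to 2.75 when libraries were left out. In the authors' deposited table its log2 fold change was 2.01 with an adjusted p of 0.331. Its partner Col8a1 stood at 37.5, 17.6 and 10.7 and at 15.1, 23.7 and 43.8 (0.36, SE 0.54), so the groups overlapped for that chain. The ratio of Col8a1 to Col8a2 per kilobase was 1.27, 1.29 and 2.87 after AAV-GFP and 0.265, 0.602 and 0.458 after AAV-NDNF, without overlap. Ndnf itself was lowest in AAV-NDNF replicate 3, the library of that group with the most Col8a2.

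The other genes of this class overlapped between the groups. Col7a1, the chain of the anchoring fibrils of skin, ranged from 48.9 to 80.1 (0.11), and Col26a1 from 52.6 to 67.3 (−0.02). Col28a1, known from peripheral nerve, stood at 11.6, 3.91 and 1.07 and at 2.52, 5.63 and 10.95 and was not tested.

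The transmembrane collagens Col23a1, Col25a1 and Col13a1 are anchored in the cell surface and can be shed, and Col25a1 and Col13a1 are known from the contact of motor axons with muscle. Col23a1 stood at 512, 618 and 516 after AAV-GFP and at 538, 225 and 435 after AAV-NDNF. AAV-NDNF replicate 2 was far below the other libraries and AAV-NDNF replicate 1 lay within the AAV-GFP range. The log2 fold change was −0.54 (SE 0.26, unadjusted p = 0.0621, limma adjusted p = 0.997), and −0.18 without AAV-NDNF replicate 2. Col25a1 stood at 317, 194 and 307 and at 281, 269 and 252 (0.00, SE 0.20), with AAV-GFP replicate 2 lowest. Col13a1 was low, from 3.29 to 17.9 (−0.65).

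Genes that make, bind, sense and remove collagen were read from lists chosen for their roles, and limma, edgeR and DESeq2 called 0 genes of these lists. Over all genes tested, 49.9% were below 0, 3.53% were lower and 1.15% higher at an unadjusted p under 0.05, and 5.50% were lower without overlap, and the counts below stand against these shares. Of 32 genes of synthesis and processing, 23 were below 0 (median −0.16), and 2 of the 32 were lower at an unadjusted p under 0.05, near the share over all genes. The median was −0.07 without AAV-NDNF replicate 2. P4ha3, a prolyl hydroxylase subunit, stood at 412, 519 and 385 after AAV-GFP and at 299, 297 and 206 after AAV-NDNF (−0.72, unadjusted p = 0.00248, limma adjusted p = 0.53). Lox, which cross-links fibrils, stood at 43.7, 42.0 and 76.9 and at 15.98, 30.4 and 34.0 (−1.003, unadjusted p = 0.026, limma adjusted p = 0.993). The groups did not overlap for either gene or for P4ha1, and 6 of the 32 were lower without overlap (5.50% of all genes). The sum of the list was too, at 17382.5, 18329.5 and 17148.7 after AAV-GFP and 16383.8, 16180.3 and 17049.7 after AAV-NDNF. The gap between the replicates 3 of the groups was narrow, and no share over sums of genes was computed. P4ha1 had −0.21, the procollagen protease Bmp1 −0.29 and Serpinh1, which encodes HSP47, −0.13 with 546, 524 and 508 against 426, 432 and 607.

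Of 14 proteins that bind fibrils, 11 were below 0 (median −0.17, or −0.35 without AAV-NDNF replicate 1 and −0.11 without AAV-NDNF replicate 2). At an unadjusted p under 0.05 stood 4 of the 14 (4.68% of all genes), 3 of them below 0 and 1 above. The small leucine-rich proteins Prelp (−0.57, with 1040.0, 1454 and 1138 against 823, 707 and 903) and Fmod (−0.41) and the matricellular protein Thbs2 (−0.31) were lower without overlap, and Dcn, decorin, was higher (0.44, with 229, 204 and 174 against 216, 292 and 326) with overlap. Dcn is also 1 of the fibroblast markers. Sparc, a collagen-binding protein abundant in glia, had −0.13 and was lower without overlap. This held for 4 of the 14 (5.50% of all genes) and for the sum of the list, most of which was Sparc. None of the 14 had a limma adjusted p under 0.53.

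Collagen receptors were below 0 in 7 of 9 cases, with a median of −0.17. That median was −0.01 without AAV-NDNF replicate 3 and −0.28 without AAV-NDNF replicate 1. At an unadjusted p under 0.05, 2 of the 9 were lower (3.53% of all genes). Lair1, an inhibitory receptor of immune cells, stood at 527, 442 and 533 and at 424, 341 and 329.7 (−0.46, unadjusted p = 0.0103, limma adjusted p = 0.817). The integrin subunit Itga2 was rare at 22.3, 36.2 and 16.02 and at 13.5, 10.1 and 7.67 (−1.13), while its partner Itgb1 had 0.11 and Adgrg1, a receptor for type III, −0.17. The groups did not overlap for Lair1 and Itga2. The microglial marker Cx3cr1 was likewise lower without overlap, at 2177, 2199.8 and 2184 and at 1828, 1614 and 1559 (−0.40, unadjusted p = 0.00355, limma adjusted p = 0.549), and the part of microglia in the value of Lair1 was not tested.

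Breakdown and uptake genes were below 0 in 9 of the 11 tested, of 14 listed (median −0.17, or −0.08 without AAV-GFP replicate 2). The membrane collagenase Mmp14 (−0.45, with 372, 536 and 378 against 357, 265 and 313) and the uptake receptor Mrc2 (−0.52) had an unadjusted p under 0.05, and the inhibitor Timp1 (−0.53) and the macrophage receptor Mrc1 (−0.30) did not. In the TGF-beta pathway, a main driver of collagen transcription in fibrosis, 16 of 19 genes were below 0 (median −0.13). That median was −0.08 without AAV-NDNF replicate 3 and −0.15 without AAV-GFP replicate 1. At an unadjusted p under 0.05, 3 of the 19 were lower (3.53% of all genes). Nrros, which presents latent TGF-beta on microglia, stood at 237, 209 and 194 and at 130.4, 126 and 143 (−0.67, unadjusted p = 0.00255, limma adjusted p = 0.53). The receptors Tgfbr2 (−0.39) and Tgfbr1 (−0.26) had an unadjusted p under 0.05, and the ligand Tgfb3 (−0.31) did not. Both receptors and Nrros were lower without overlap (5.50% of all genes), and the astrocyte marker Gfap was too, at 98536, 128814 and 98168 and at 89726, 75104 and 88130.5 (−0.36, unadjusted p = 0.0242, limma adjusted p = 0.984). Of the 9 markers of spinal cord cells, Snap25 of neurons had 0.23 and Pdgfra of oligodendrocyte precursors −0.21. The part of microglia and astrocytes in these values was not tested.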

How the data were processed

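Polyadenylated RNA of 6 samples was sequenced. Tools named in the submitters' processing notes are cutadapt, HISAT2, HTSeq and DESeq2, with build mm10. Their versions, the annotation and the strand setting are not given in the sources used here. Reads of overlapping genes cannot be told apart. Per the file headers and values, the authors deposited a normalized signal, gene counts divided by a size factor per library, beside DESeq2's log2 fold changes, Wald score and p-values. All deposited values (100%, tolerance 0.01) were whole multiples of 1 read, so reads were recovered.

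Groups came from the labels. Log2(value + 1) was tested with limma 3.58.1 (trend, robust, two-sided) in R 4.3.3 for genes at 10 or more in at least 3 libraries, with Benjamini-Hochberg adjustment over 17480 genes and calls under 0.05. With 3 libraries a group, each limma p-value sets the group difference against the spread between these libraries, moderated by that of other genes. The fit was tested on simulated data. Alternatives were edgeR 4.0.16 and DESeq2 1.42.0 on recovered reads, upper quartile and TMM scaling, no filter or one of 50, pseudocounts of 0.5 and 8, a replicate block and leaving out libraries.

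The collagen genes, classes and lists were chosen with earlier results of these data known. Every member is named. Values per library are given for chains with a mean of at least 100, an unadjusted p under 0.05, or a shared start region or trimer, and 4 genes with the smallest p are named from each other list, marker lists included, beside Serpinh1, Sparc and Ndnf. Other markers named were chosen after their values were seen, and 1 marker is not reported here. GENCODE M21 (mm10) held 27638 of 28162 symbols (98.1%).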

Additional observations from a re-analysis of the deposited data

How the results depend on the processing

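Under every alternative run, 0 collagens were called. Over all genes, limma called 0, or 3 without the filter on low values and 6 with the replicate block, while DESeq2 called 55 and edgeR 0. When libraries were left out limma called between 0 and 257, namely 43 without AAV-GFP replicate 2, 11 without AAV-NDNF replicate 3, 1 without AAV-NDNF replicate 1 and 257 without the first 2 of these together, an omission chosen after the values were seen. Deviations of same-numbered libraries from their group means correlated at −0.09, 0.0485 and 0.0801. The labels do not say whether such libraries share more than a number, and these correlations cannot settle it. The sign of 14 of 40 collagens held in every setting run, among them Col5a3, Col27a1 and Col8a2 (which a filter of 50 removes). With all libraries kept, the sign turned for the log2 fold change of Col15a1 (0.0560 in edgeR, 0.0604 in DESeq2), the log2 fold change of Col3a1 (0.0337 and 0.0396) and the log2 fold change of Col25a1 (−0.0329, −0.0278 and, with TMM scaling, −0.00159). Log2 fold changes that turned when libraries were left out ranged as follows: Col11a1 −0.16 to 0.27, Col11a2 −0.40 to 0.18, Col13a1 −1.06 to 0.00232, Col15a1 −0.26 to 0.34, Col16a1 −0.38 to 0.0632, Col19a1 −0.48 to 0.0201, Col1a1 −0.29 to 0.0385, Col20a1 −0.0361 to 0.47, Col22a1 −0.16 to 0.15, Col25a1 −0.22 to 0.13, Col26a1 −0.0989 to 0.13, Col2a1 −0.23 to 0.18, Col3a1 −0.35 to 0.44, Col4a1 −0.33 to 0.0221, Col4a2 −0.19 to 0.14, Col4a3 −0.82 to 0.42, Col4a4 −0.46 to 0.32, Col4a6 −0.22 to 0.0539, Col5a1 −0.31 to 0.13, Col6a2 −0.42 to 0.0501, Col6a3 −0.62 to 0.54, Col6a4 −0.26 to 0.45, Col6a6 −1.21 to 0.23, Col7a1 −0.0660 to 0.28, Col8a1 −0.0883 to 0.83, Col9a2 −0.0106 to 0.37. Few reads limit Col8a2, Col4a3, Col4a4 and rarer members.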
